A study of Rattus norvegicus with 48 samples.

Results

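The microRNAs miR-21-5p and miR-210-3p were followed through 4 regions of the healthy rat kidney, namely proximal tubule, glomerulus, thick ascending limb (the last stretch of Henle's loop) and collecting duct. Both were taken by name, as 2 of the 188 mature miRNAs in the deposited table, and the rule that picks their columns uses no measured value, though earlier results of these data were known when they were chosen. The column of rno-miR-3574 holds the same values as that of rno-miR-210-3p and was counted once with it. Leaving out the second column of each of the 4 such pairs, the table holds 184 distinct miRNAs.

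The kidneys came from 3 male Sprague-Dawley rats, 6 months old and naive, with no treatment, injury or genetic change in any group. Regions were cut by laser capture from frozen sections of 8 µm, and the small RNA of each was sequenced. Antibodies marked the tubules, with glutathione-S-transferase standing for proximal tubule, Tamm-Horsfall protein for thick ascending limb and aquaporin-2 for collecting duct, whereas a histochemical stain marked the glomeruli. Each segment thus had its own stain, so staining and segment cannot be told apart in this design, for the tubules as for the glomerulus. Rats 1, 2 and 3 each gave a library of every tubule segment, so that n = 3 there, and rats 1 and 3 gave the 2 glomerulus libraries. Each library was run on 4 flow cells. A further glomerulus library labelled rat 3 was set aside by the submitters and is not analysed here.

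A mature miRNA is a short RNA cut from a hairpin, and it guides Argonaute proteins to messenger RNAs that pair with its seed, the bases 2 to 8 from its 5′ end. miR-21-5p is known for its rise in injured and fibrotic kidney, and Pdcd4 and Ppara are among the transcripts it represses. miR-210-3p is known as the miRNA most closely tied to low oxygen. Hypoxia-inducible factor switches on its gene, and its targets include Iscu, which is needed for iron-sulfur clusters of the respiratory chain, and Efna3. Oxygen is scarcer in the renal medulla, where loops of Henle and collecting ducts run, than in the cortex, where glomeruli and most proximal tubules lie.

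The mature sequences are shown from RefSeq on the GRCr8 assembly because the reads of miR-210-3p turn on them. Letters run from 5′ to 3′ and capitals mark the seed.
rno-miR-21-5p: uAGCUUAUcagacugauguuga
rno-miR-21-3p: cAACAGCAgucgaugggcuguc
rno-miR-210-3p: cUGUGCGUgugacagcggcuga
rno-miR-3574: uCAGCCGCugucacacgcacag

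Neither seed of the 2 miRNAs is carried by any other of the 693 mature rat miRNA names in RefSeq, so that each stands alone as a seed family there. In GRCr8, miR-21-5p lies at chr10:71902653-71902674 and its partner arm miR-21-3p at chr10:71902615-71902636, both on the minus strand. The Mir21 gene overlaps no other gene in the RefSeq table, and its neighbours are Tubd1 and Vmp1. miR-210-3p lies at chr1:205755946-205755967 on the minus strand. The Mir210 gene overlaps the long noncoding RNA gene LOC102553043 and lies between Rassf7 and Phrf1. miR-3574 occupies the same bases as miR-210-3p on the plus strand, and it is the exact reverse complement. The hairpins follow, with the 2 mature arms of each in capitals, to show that miR-210-3p sits in the second arm and miR-21-5p in the first.
Mir21 hairpin: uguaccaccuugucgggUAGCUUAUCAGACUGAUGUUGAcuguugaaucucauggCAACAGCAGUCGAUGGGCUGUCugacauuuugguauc
Mir210 hairpin: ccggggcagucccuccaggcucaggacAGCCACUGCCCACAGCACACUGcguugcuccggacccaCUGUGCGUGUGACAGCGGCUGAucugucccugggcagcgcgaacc

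The deposited values are read counts normalized by TMM, which scales each library by a trimmed mean of its log ratios to a reference library. Low values of a run lay on whole multiples of a step, the value of 1 read, so that the reads behind each value could be estimated. Rat 3 gave both the shallowest library, its glomerulus with 147996 reads, and the deepest, its thick ascending limb with 1296993. The summed value was lowest in the glomerulus of rat 3, at 77457, and highest in the collecting duct of rat 2, at 255518. The summed value of 3 miRNAs listed for proximal tubule (miR-204-5p, miR-194-5p and miR-192-5p) was 21241 to 26428 in that segment and at most 4309.7 elsewhere. Most of the sum was miR-192-5p, with a mean of 22626 in proximal tubule. miR-204-5p had a mean of 64.2 there and 43.8 in glomerulus. These 2 segments overlapped for miR-204-5p, and proximal tubule was the lower in 1 of 2 rats. The sum moved with miR-21-5p, and its part in that result was not tested. The lists hold no miRNA that tells thick ascending limb from collecting duct, and those 2 labels were not checked. Both endothelial miRNAs summed to 4299 to 6289.7 in the glomerulus and to at most 3170.3 elsewhere.

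miR-21-5p was the more abundant of the 2 and was highest in the proximal tubule. Its values there were 1262, 1149 and 1278 in rats 1, 2 and 3, with a mean of 1229.8 ± 70.2 (SD, n = 3). The glomerulus libraries held 409 in rat 1 and 210.5 in rat 3, the lowest of the 4 segments, with a mean of 310.0 ± 141 (SD, n = 2). All proximal tubule libraries lay above all 8 others. The shares of all miRNAs without overlap, in either direction, are given pair by pair below, and the joint share was not counted. The thick ascending limb had 492, 338 and 593 in rats 1, 2 and 3 (mean 474 ± 129, SD, n = 3). The collecting duct had 522, 719 and 419.7 (mean 554 ± 152, SD, n = 3). These 2 segments overlapped, and which of them was higher changed with the rat. Between the 4 runs of a library the SD of miR-21-5p was 0.02 to 0.19 on the log2 scale.

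Counted as reads, miR-21-5p had 4629, 5976 and 1482 in the proximal tubule libraries and 393 in the shallowest library, the glomerulus of rat 3. As RPM, the reads out of every 1000000 reads of the table and a scale free of the TMM factors, the proximal tubule held 8497, 6536 and 6141. The glomerulus held 2457 and 2655, the thick ascending limb 3376, 2852 and 3475, and the collecting duct 2841, 2821 and 2274. Proximal tubule stood above the other segments on this scale too, with a mean of 7058 ± 1262 (SD, n = 3). The order of the other 3 segments did change, with a thick ascending limb mean of 3234 ± 335 (SD, n = 3) above the collecting duct mean of 2645 ± 322 (SD, n = 3). RPM in turn falls where other miRNAs take more of the reads. Mean values of the abundant miR-10a-5p were 44831 in proximal tubule, 25807 in glomerulus, 70754 in thick ascending limb and 98002 in collecting duct. Its part in these RPM values was not tested. The share of miR-21-5p in a library's summed value averaged 0.705% in proximal tubule, 0.260% in glomerulus, 0.327% in thick ascending limb and 0.263% in collecting duct. In such tissue pieces, fewer cells that express a miRNA and less of it per cell cannot be told apart.

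**Figure D1:**
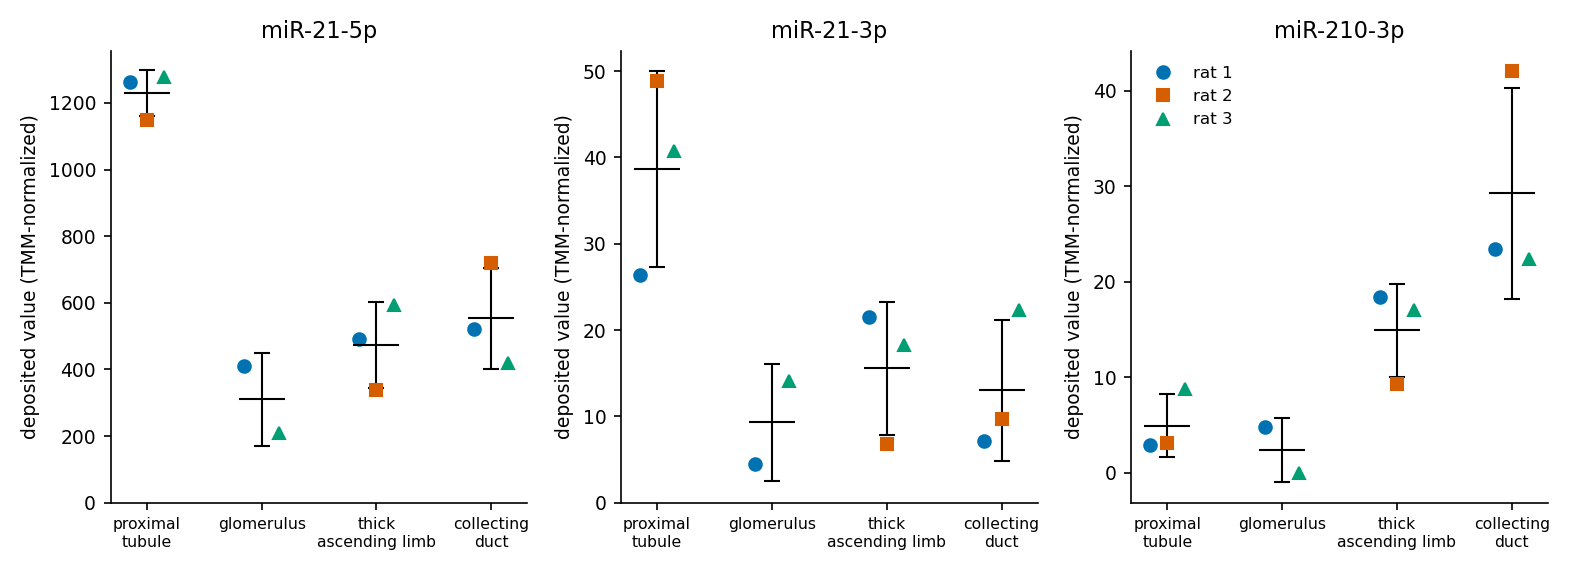
Deposited TMM-normalized values of miR-21-5p, miR-21-3p and miR-210-3p (y axes, separate linear scales) in the 4 segments, 1 point per library and 1 symbol per rat, with horizontal lines for the mean and bars for ± 1 SD (n = 3, glomerulus n = 2). miR-21-5p stands at 1149 to 1278 in proximal tubule and at most 719 elsewhere, whereas miR-210-3p is highest in collecting duct, at 22.4 to 42.0.

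miR-21-5p differed among the 4 segments in a limma F-test blocked by rat, at an adjusted p of 0.0047 (Benjamini-Hochberg over 188 miRNAs). That test called 46 of the 188 miRNAs, or 24.5%. An exact permutation test of miR-21-5p alone, with segment labels moved within each rat, used F, which has no direction. It gave p = 0.031, where the smallest p that the 3456 orders allow is 0.0017. With 1 library or rat left out this exact p was 0.0069 to 0.25, and it missed the threshold in 9 of 14 cases. Where a rat was left out, the smallest exact p possible was 0.042. The limma call was lost with quantile normalization (adjusted p = 0.075) and with no variance trend (0.14). The proximal tubule value exceeded that of the glomerulus 3.08-fold in rat 1 and 6.07-fold in rat 3. On the log2(value + 1) scale the difference was 2.08 ± 0.55 (SE), with a 95% interval of 1.01 to 3.15 and a limma adjusted p of 0.0016. With quantile normalization it was 0.98 at an adjusted p of 0.041. In this comparison 17.6% of the 188 miRNAs were called in either direction and 13.8% as higher in proximal tubule and 3.72% as lower, and for 42% the libraries did not overlap. The 3 comparisons with proximal tubule share its libraries.

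Against thick ascending limb, miR-21-5p was higher in proximal tubule 2.57-fold, 3.40-fold and 2.15-fold in rats 1, 2 and 3. The difference was 1.41 ± 0.47 (SE) on the log2 scale, interval 0.48 to 2.34, at a limma adjusted p of 0.046, where 7.98% of miRNAs were called and 31.4% did not overlap. This call lay just inside the threshold and was lost in 10 of the 14 fits that left out a library or a rat, with an adjusted p of up to 0.52. Leaving out any proximal tubule or any collecting duct library was enough, as was leaving out the thick ascending limb of rat 1 or 2, or all of rat 1 or 2. Fitted on the tubule libraries alone, it had an adjusted p of 0.00011. Against collecting duct, the proximal tubule was 2.42-fold, 1.60-fold and 3.04-fold higher in the 3 rats, without overlap. The difference of 1.18 ± 0.47 (SE), interval 0.26 to 2.11, missed the threshold at a limma adjusted p of 0.098, with 10.1% of miRNAs called and 34% not overlapping. It passed with no rat block, at 0.044. The tubule libraries alone gave the same difference at an adjusted p of 0.0014, and rescaling each library to the same total gave 1.41 at 0.00019.

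The other 3 comparisons of miR-21-5p were not called by limma. Glomerulus was 0.67 below thick ascending limb on the log2 scale (interval -1.74 to 0.40, adjusted p = 0.51), with 11.2% of miRNAs called. With 1 library or rat left out this was -1.15 (without the glomerulus of rat 1) to -0.024 (without rat 3). Its libraries lay below those of collecting duct without overlap, by 0.90 (interval -1.97 to 0.17, adjusted p = 0.28), where 14.9% were called and 36.7% did not overlap. Thick ascending limb and collecting duct differed by -0.23, with an interval of -1.15 to 0.70 and an adjusted p of 0.87. That sign turned to 0.23 after rescaling by median of ratios, 0.31 with the same total and 0.16 with quantile normalization. Libraries were thus separated for proximal tubule against each other segment and for glomerulus against collecting duct, 4 of 6 pairs in all. The last separation was not seen in RPM, where glomerulus overlapped collecting duct, and with the same total the difference was -0.028 (limma adjusted p = 0.95).

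The median difference over all miRNAs was itself 0.77 between proximal tubule and glomerulus, 0.37 between proximal tubule and thick ascending limb, and -0.61 between glomerulus and collecting duct. After rescaling by median of ratios, the first of these medians was 0.24, and the miR-21-5p difference between proximal tubule and glomerulus was 1.42 at a limma adjusted p of 0.00052. Calls between proximal tubule and glomerulus went from 26 higher and 7 lower as deposited to 29 and 22 after that rescaling. Between proximal tubule and thick ascending limb they went from 13 and 2 to 14 and 8, and between glomerulus and collecting duct from 7 and 21 to 22 and 22. White blood cell miRNAs, of which 3 of 5 listed were measured, summed to 29.5 to 51.6 in proximal tubule, where miR-21-5p was highest. The same sum was 78.7 to 117 in glomerulus, with miR-155-5p at 0, 25.1 to 43.3 in thick ascending limb and 90.7 to 123 in collecting duct. The part of white blood cells in the miR-21-5p result was not tested. None of 4 listed red blood cell miRNAs was among those measured.

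The partner arm, miR-21-3p, which is cut from the same hairpin and usually degraded, was measured as well. Its values were 26.4, 48.8 and 40.7 in the proximal tubule of rats 1, 2 and 3. Glomerulus had 4.53 and 14.1, thick ascending limb 21.5, 6.83 and 18.3, and collecting duct 7.10, 9.67 and 22.3. As with the main arm, all proximal tubule libraries lay above all the others. How many miRNAs had proximal tubule above all the other segments at once was not counted. Pair by pair and in either direction, proximal tubule did not overlap glomerulus for 42% of all miRNAs, thick ascending limb for 31.4% and collecting duct for 34%. By value, the closest libraries were the proximal tubule of rat 1, with 95 reads, and the collecting duct of rat 3, with 76. In RPM, the proximal tubule of rat 1 held 174 (95% interval of counting error 141 to 213). The closest to it on that scale was the glomerulus of rat 3, with 162 (104 to 241), so the intervals overlapped. limma called no difference for it, with an F-test adjusted p of 0.24 and 0 of 6 pairs called, 2 of them with an unadjusted p below 0.05. The 3p arm made up 1.09% to 6.28% of the values of both arms in single libraries. Both ends of that range were glomerulus libraries, rat 1 with 20 reads of the 3p arm and rat 3 with 24. Mean shares were 3.07%, 3.69%, 3.06% and 2.57% in proximal tubule, glomerulus, thick ascending limb and collecting duct. The glomerulus mean is thus that of the 2 extremes.

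Reads of miR-210-3p were shared with its antisense name. The column was above 0 in 40 of 44 runs, and in 25 of these it stood at a whole number of reads plus 0.5, within 0.03 reads. The sum of both identical columns was whole in 40 of 40, so the values are those of reads divided equally between the names. miR-21-5p and miR-21-3p were whole in all 44 runs. Because the 2 names are reverse complements at one position, reads of miR-210-3p and of miR-3574 cannot be told apart in this table without strand, and the level of miR-210-3p is uncertain to that extent. Values below are those of 1 column, and read numbers are those of both columns.

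**Figure D2:**
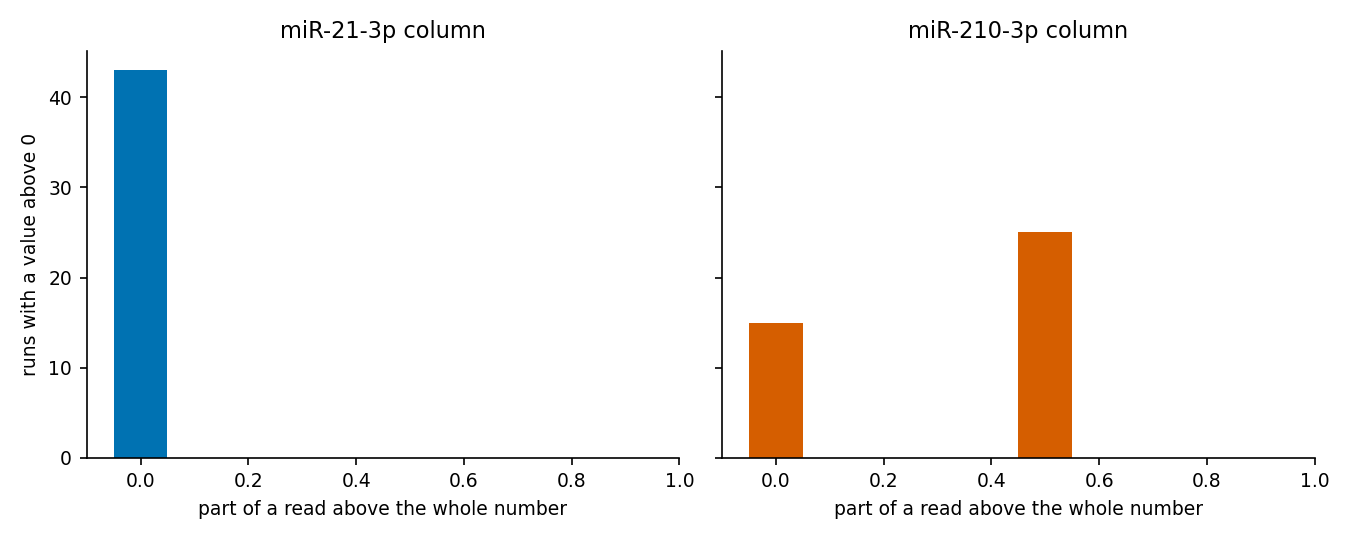
Number of runs (y axis) by the part of a read by which the value exceeds a whole number of reads (x axis, in reads), for runs above 0 of the miR-21-3p column and the miR-210-3p column. All bars of miR-21-3p stand at 0, whereas 25 of 40 runs of miR-210-3p stand at 0.5.

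miR-210-3p was scarce and had another order, low in glomerulus and proximal tubule and highest in collecting duct. Its values in collecting duct were 23.4, 42.0 and 22.4 in rats 1, 2 and 3, with a mean of 29.3 ± 11.1 (SD, n = 3). Thick ascending limb held 18.4, 9.33 and 17.0 (mean 14.9 ± 4.88, SD, n = 3). Collecting duct was above thick ascending limb in each rat, and the 2 segments did not overlap. Proximal tubule held 2.94, 3.09 and 8.75 (mean 4.92 ± 3.31, SD, n = 3). The glomerulus had 4.76 in rat 1 and was listed at 0 in all 4 runs of rat 3. Proximal tubule and glomerulus overlapped, and every library of both had a lower value than every library of thick ascending limb and collecting duct. On the mean of log2 values over the runs, which the tests use, the proximal tubule of rat 3 (3.25) was level with the thick ascending limb of rat 2 (3.23). Between the runs of a library with reads of miR-210-3p, the SD was 0.09 to 0.72 on the log2 scale. The runs of the thick ascending limb of rat 2 spanned 4.65 to 17.0.

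The reads of both columns behind these values were few, at 19, 28 and 19 in proximal tubule, 44 and 0 in glomerulus, 53, 44 and 251 in thick ascending limb, and 192, 262 and 155 in collecting duct. In RPM, collecting duct held 258 (95% Clopper-Pearson interval 223 to 297), 332 (293 to 375) and 246 (208 to 287). Thick ascending limb held 242, 137 and 194, with a mean of 191 ± 52.7 (SD, n = 3) against 279 ± 46.8 (SD, n = 3) in collecting duct. On this scale the lowest collecting duct library and the highest thick ascending limb library differed by less than their intervals. Proximal tubule held 34.9 (21.0 to 54.5), 30.6 (20.4 to 44.3) and 78.7 (47.4 to 123) RPM, and the glomerulus of rat 1 held 54.5 (39.6 to 73.1). In the glomerulus of rat 3, 0 of 147996 reads allows up to 20.3 RPM at 3 reads and up to 24.9 RPM by the Clopper-Pearson interval. The latter reaches into the intervals of the proximal tubule of rats 1 and 2. Intervals and this limit cover counting error only, since reads copied by PCR are not independent molecules.

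**Figure D3:**
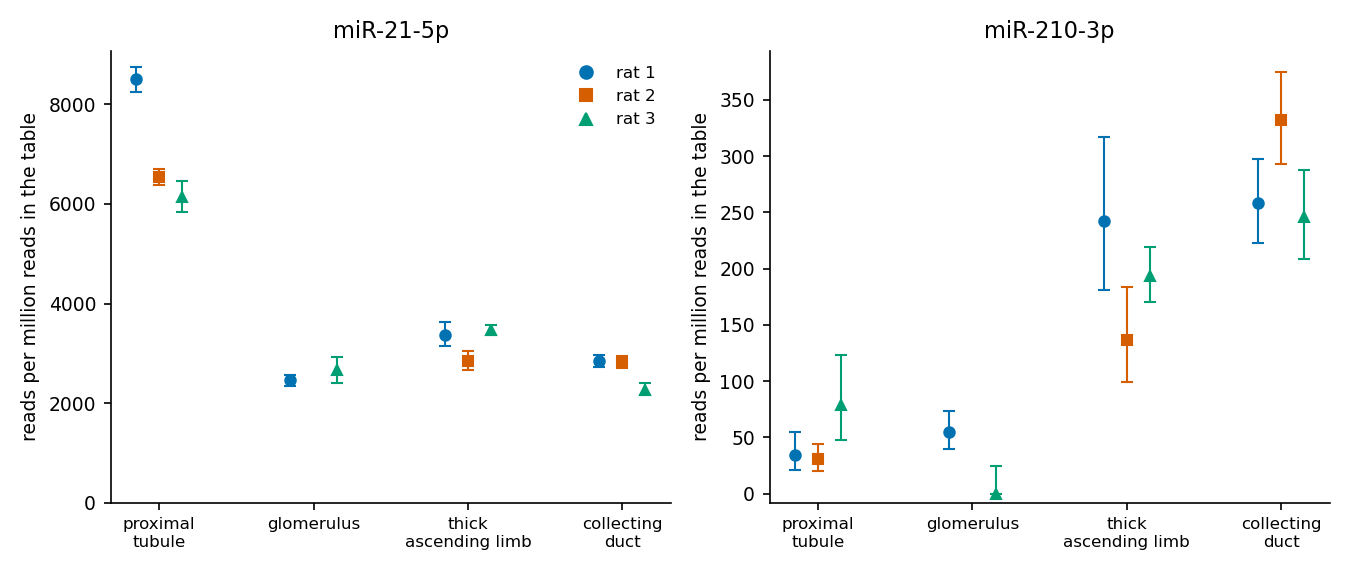
Reads of miR-21-5p and of miR-210-3p with miR-3574 in RPM, reads out of 1000000 reads of the table (y axes, linear), in each library by segment, with exact 95% binomial intervals of counting error. Proximal tubule is highest for miR-21-5p, at 6141 to 8497, and collecting duct and thick ascending limb are highest for miR-210-3p, at 137 to 332.

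miR-210-3p differed among the segments at a limma F-test adjusted p of 0.016, in the test that called 24.5% of miRNAs. The exact permutation test of F within rats gave p = 0.040. With 1 library or rat left out the exact p was 0.021 to 0.17 and missed the threshold in 11 of 14 cases. Again the smallest exact p possible with a rat left out was 0.042. Only glomerulus against collecting duct was called by limma among the 6 pairs of miR-210-3p. In rat 1 the collecting duct value was 4.91-fold that of the glomerulus, and in rat 3 it was 22.4 against a listing at 0. The difference of -3.68 ± 1.11 (SE) on the log2(value + 1) scale had an interval of -5.86 to -1.51 and a limma adjusted p of 0.0082, where 11.2% of all miRNAs were called lower and 3.72% higher in glomerulus and 36.7% did not overlap. Without the glomerulus library of rat 3 it was -2.23 at an adjusted p of 0.27, so that the call was lost. Without rat 2 the adjusted p was 0.07, and without rat 3 it was 0.26.

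Against proximal tubule, collecting duct held 7.96-fold, 13.6-fold and 2.56-fold more miR-210-3p in rats 1, 2 and 3. All collecting duct libraries lay above all those of proximal tubule, as those of 34% of miRNAs did in one direction or the other. The difference of -2.48 ± 0.96 (SE), proximal tubule minus collecting duct, interval -4.37 to -0.60, missed the threshold at a limma adjusted p of 0.079. It passed at 0.032 after rescaling by median of ratios, at 0.014 on tubule libraries alone and at 0.027 with the identical columns summed. The thick ascending limb was 6.26-fold, 3.02-fold and 1.95-fold above proximal tubule in the 3 rats (difference -1.51 ± 0.96 (SE), interval -3.39 to 0.37, adjusted p = 0.38). Within rats, collecting duct was 1.27-fold, 4.50-fold and 1.31-fold above thick ascending limb. That difference of -0.97 had an interval of -2.86 to 0.91 and an adjusted p of 0.76, where 2.13% of miRNAs were called and 29.3% did not overlap.

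Glomerulus was 2.71 below thick ascending limb on the log2 scale (interval -4.88 to -0.54, adjusted p = 0.11), with 33.5% of miRNAs not overlapping. Proximal tubule minus glomerulus was 1.20, with an interval of -0.97 to 3.37 and an adjusted p of 0.45. Leaving out the glomerulus of rat 3 turned it to -0.25. Of the 6 pairs, 3 had an unadjusted p below 0.05 for miR-210-3p, as 3 had for miR-21-5p. The 4 measured miRNAs of tubule epithelium (miR-200a-3p, miR-200b-3p, miR-141-3p and miR-429) were, like miR-210-3p, lowest in glomerulus and highest in collecting duct. They summed to 36.1 to 128 in glomerulus, 429 to 673 in proximal tubule, 412 to 792 in thick ascending limb and 827 to 1595 in collecting duct. Their sums overlapped between proximal tubule and thick ascending limb and did not overlap between proximal tubule and glomerulus. miR-210-3p overlapped in the latter pair, and in the former only on the log2 scale that the tests use. By segment means, miR-141-3p, miR-200b-3p and miR-429 had the order of miR-210-3p, whereas miR-200a-3p was higher in proximal tubule than in thick ascending limb. Between proximal tubule and thick ascending limb, limma called miR-141-3p (difference -2.09, adjusted p = 0.03) and none of the other 3. The part of these epithelial miRNAs in the miR-210-3p result was not tested.

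**Figure D4:**
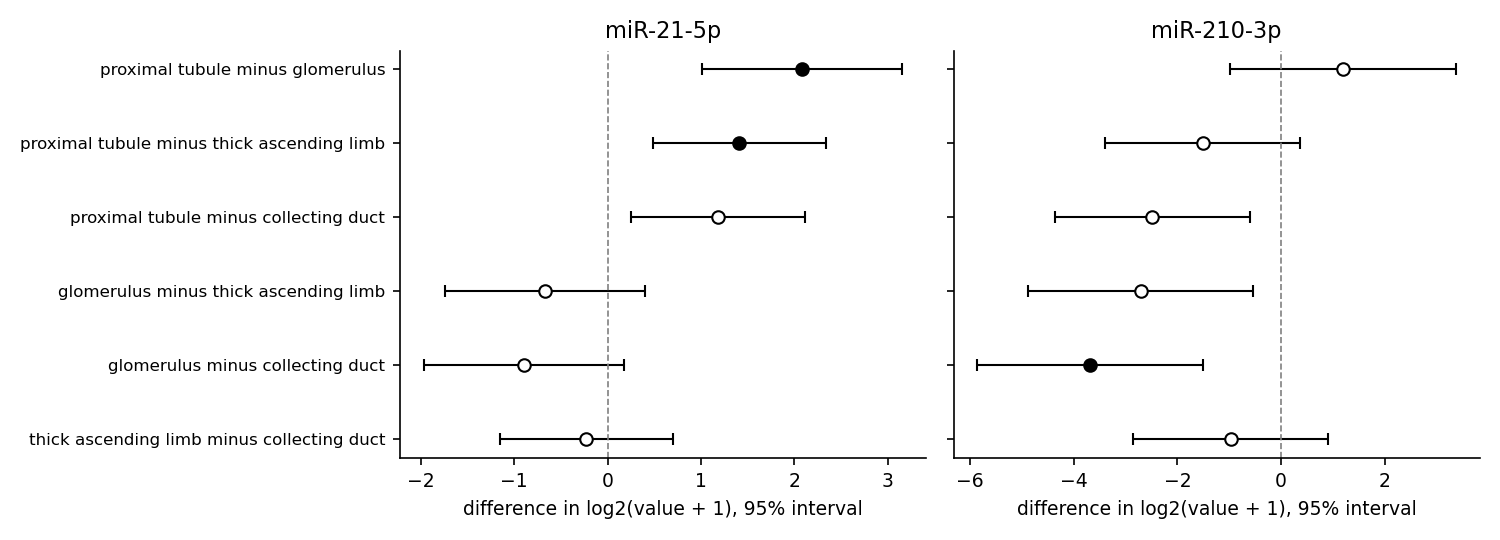
Differences in log2(value + 1) between segments (x axes) for the 6 pairs (y axis) of miR-21-5p and miR-210-3p, with 95% intervals from limma; filled points passed an adjusted p of 0.05. The 2 filled points of miR-21-5p stand at 2.08 and 1.41, and the 1 of miR-210-3p at -3.68.

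As a ratio of reads, the balance of the 2 miRNAs within a library does not depend on how libraries were scaled. In proximal tubule there were 244, 213 and 78.0 reads of miR-21-5p for each read of miR-210-3p in rats 1, 2 and 3. The thick ascending limb had 13.9, 20.8 and 18.0, and the collecting duct 11.01, 8.49 and 9.26. The glomerulus of rat 1 had 45.1, and that of rat 3 at least 131, with the limit of 3 reads set for the undetected miR-210-3p. In every rat the order ran from proximal tubule or glomerulus through thick ascending limb to collecting duct, and proximal tubule and glomerulus changed places between rats 1 and 3. Collecting duct libraries did not overlap those of any other segment. The log2 ratio, from values with 1 added, differed among segments in an exact permutation test of F within rats (p = 0.019, 11 libraries). The added 1 makes this tested ratio depend on scaling where miR-210-3p is low. In the glomerulus of rat 3, with miR-210-3p at 0, it was the log2 value of miR-21-5p alone, 7.72. With 1 rat left out the exact p was 0.083 to 0.12, where the smallest p possible was 0.042.

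**Figure D5:**
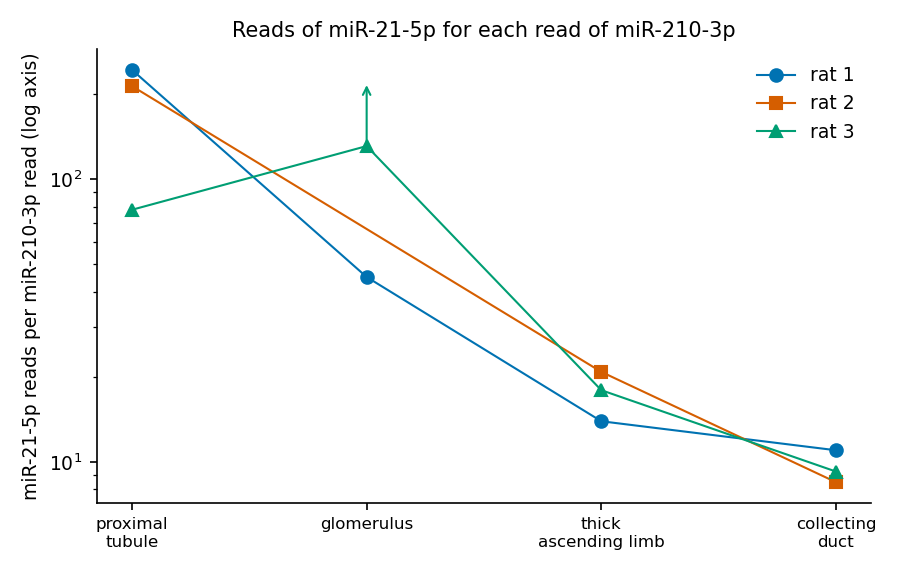
Reads of miR-21-5p for each read of miR-210-3p with miR-3574 (y axis, log scale) by segment, with 1 line per rat; rat 2 has no glomerulus library, and the arrow marks a lower limit. Ratios fall from 78.0 to 244 in proximal tubule to 8.49 to 11.01 in collecting duct.

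By mean value over the 11 libraries, miR-21-5p ranked 26 of 184, between let-7g-5p at 764 and let-7a-5p at 579.7, the latter being 1 of 2 identical columns. It was the 18th to 35th most abundant in single libraries. miR-210-3p ranked 116, between miR-532-5p at 14.2 and miR-203b-3p at 13.6. With identical columns summed, miR-21-5p ranked 27, below let-7a-5p at 1159, and miR-210-3p ranked 93. The miRNAs with profiles most like miR-21-5p, among 63 with a mean of at least 100, were let-7g-5p (Pearson r = 0.951), miR-107-3p (0.946), miR-103-3p (0.933), miR-3557-5p (0.886) and miR-194-5p (0.884). let-7g-5p had mean values of 1398 in proximal tubule, 333 in glomerulus, 568 in thick ascending limb and 613 in collecting duct, the order of segments seen for miR-21-5p. For miR-210-3p, among 64 candidates, they were miR-10a-5p (0.984), miR-141-3p (0.929), miR-423-3p (0.884), miR-125a-5p (0.868) and miR-92b-3p (0.866). miR-10a-5p, the most abundant of these, had means of 44831 in proximal tubule, 25807 in glomerulus, 70754 in thick ascending limb and 98002 in collecting duct. These correlations describe log2(value + 1) over 11 libraries that share rats, and every miRNA of a library shares its scale.

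Of 19 miRNAs listed for kidney injury and fibrosis, 16 were measured and 6 differed among segments in the limma F-test, in which 24.5% of all miRNAs were called. miR-192-5p, a miRNA of proximal tubule, was like miR-21-5p in being highest there, with 22626 ± 2930.3 (SD, n = 3) against 1088 ± 462 (SD, n = 2) in glomerulus. The epithelial miRNAs miR-200a-3p, miR-200b-3p, miR-141-3p and miR-429, which hold back Zeb transcription factors, were highest in collecting duct, as was miR-210-3p. miR-200a-3p reached 150.3 ± 45.3, miR-141-3p 299.8 ± 103 and miR-429 265 ± 59.5 there (SD, n = 3). miR-200b-3p reached 479 ± 186 (SD, n = 3) there and 259.9 ± 48.1 (SD, n = 3) in proximal tubule. The sixth, miR-199a-3p, had 104 ± 35.6 (SD, n = 3) in collecting duct and 24.5 ± 26.6 (SD, n = 2) in glomerulus. Between proximal tubule and glomerulus 6 of the 16 members were called higher and 0 lower, against 13.8% and 3.72% of all miRNAs, with a median of 1.31 against 0.77 over all. They were the same 6 as in the F-test. Of these, miR-192-5p is also listed for proximal tubule, and miR-200a-3p, miR-200b-3p, miR-141-3p and miR-429 for tubule epithelium. Between glomerulus and collecting duct 0 were higher and 5 lower, against 3.72% and 11.2% of all miRNAs, with a median of -1.35 against -0.61. The abundant members miR-146a-5p, which damps inflammatory signalling, and miR-29a-3p, which represses collagens, were not called, at F-test adjusted p of 0.37 and 0.092. miR-146a-5p had mean values of 463, 786, 406 and 330.0 in proximal tubule, glomerulus, thick ascending limb and collecting duct. miR-29a-3p had 304, 218, 189 and 475 in the same order.

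Of 14 miRNAs listed for low oxygen, 13 were measured and 4 were called in the F-test, against 24.5% of all miRNAs, a share near that background. miR-210-5p was the one not measured. miR-27a-3p was highest in collecting duct, with 294.6 ± 24.9 (SD, n = 3), and lowest in proximal tubule, with 79.1 ± 22.6 (SD, n = 3), but it was 216 ± 156 (SD, n = 2) in glomerulus. miR-23b-3p and miR-27b-3p, which come from 1 cluster, were highest in glomerulus, at 253.5 ± 171 and 10052 ± 4279 (SD, n = 2). miR-181b-5p was highest in proximal tubule, at 532 ± 119.7 (SD, n = 3). Between proximal tubule and glomerulus 1 member was higher and 3 lower, against 13.8% and 3.72% of all miRNAs, with a median of -0.52 against 0.77 over all. Between glomerulus and collecting duct, the pair in which miR-210-3p was called lower in glomerulus, 1 member was higher and 0 lower, against 3.72% and 11.2% of all miRNAs, with a median of 0.24 against -0.61. The abundant members miR-26a-5p and miR-181a-5p were not called in the F-test (adjusted p = 0.49 and 0.36). miR-26a-5p had mean values of 8592, 8308, 5317 and 8739 in proximal tubule, glomerulus, thick ascending limb and collecting duct. miR-181a-5p had 3855, 4529, 2249.5 and 3201 in the same order.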

How the data were processed

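Small RNA of laser-captured kidney regions was sequenced as single reads of 50 bases in 44 runs, 11 libraries on 4 flow cells. Each deposited value is a signal: read counts that the authors normalized by TMM after filtering out low ones, per the file's name. Partek 6.0, Bowtie2 2.2.5, Bowtie 1.0.0 and the rat build rn6 were used, per the submitters' processing notes. The annotation and the treatment of strand are not given in the sources used here. The estimated value of 1 read gave whole reads, within 0.03 reads, for 96.5% to 100% of values up to 60 reads of unpaired miRNAs. Identical columns held fractions, so no count test was run, and 147996 to 1296993 reads per library set the precision.

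Values were averaged over flow cells. Tests used limma 3.58.1 in R 4.3.3 on log2(value + 1) averaged over flow cells, with segment and rat as terms, a variance trend over all 188 miRNAs and Benjamini-Hochberg adjustment, two-sided at 0.05. The scale understates changes of low values. The fit left 5 residual degrees of freedom, but the prior degrees of freedom were infinite, and miRNAs of like abundance shared 1 variance. SEs, intervals and p-values of limma thus hold none of a miRNA's own scatter. In the fit with array weights, each glomerulus library had 0.248 and tubule libraries had 0.69 to 2.31. The 1 shared spread may therefore be too small for glomerulus comparisons. The rat is a block because its segments come from the same animal. The correlation of deviations from segment means had a median of 0.08 in 15 pairs of libraries from 1 rat and -0.07 in 30 pairs of 2 rats. Exact permutation tests moved segment labels within rats (Python 3.11.15, scipy 1.17.1). The scripts were tested on simulated data.

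The 2 miRNAs and all lists were chosen with earlier results of these data known. Values are given for the 2 miRNAs and their measured arms, for list members past the F-test or among the most abundant of their list, for the 5 miRNAs most like each by Pearson r among those with a mean of at least 100, and for neighbours in rank. Of 188 names, 172 matched RefSeq sequences. Alternatives were other scalings, pseudocounts, a filter at a mean of 10, treatment of the rat and of the flow cells, library weights, left-out libraries and rats and, added after seeing the data, identical columns left out or summed and tubule libraries alone. The 4 runs set aside by the submitters were not used.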

Additional observations from a re-analysis of the deposited data

How the results depend on the processing

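With no replicate block, miR-21-5p in proximal tubule minus collecting duct passed at the same difference, 1.18 (limma adjusted p = 0.044), and the block changed no other call. That difference also passed with median of ratios (1.16), the same total (1.41), array weights (1.15), flow cell C alone (1.26) and tubule libraries alone (1.18). For miR-210-3p, the same pair passed with a pseudocount of 10 (-1.39), median of ratios (-2.47), quantile normalization (-3.02), array weights (-2.42), flow cell B alone (-2.95), identical columns summed (-2.63) and tubule libraries alone (-2.48). Glomerulus minus thick ascending limb of miR-210-3p passed with median of ratios (-3.02), the same total (-2.92) and summed columns (-3.23).

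Calls were lost in other settings. The F-test adjusted p of miR-21-5p was 0.075 with quantile normalization, 0.14 with no variance trend and 0.065 on flow cell D, and that of miR-210-3p was 0.20 on flow cell D. With no variance trend, miR-21-5p in proximal tubule was not called against glomerulus (2.08, adjusted p = 0.056) or thick ascending limb (1.41). Against thick ascending limb it was not called with quantile normalization (0.61), on flow cell B (1.39) or on flow cell D (1.28). Glomerulus minus collecting duct of miR-210-3p was not called with array weights (-3.72) or on flow cell D (-3.21). Signs turned for miR-21-5p in thick ascending limb minus collecting duct, to 0.23 with median of ratios, 0.31 with the same total and 0.16 with quantile normalization. For miR-210-3p, proximal tubule minus glomerulus turned to -0.055 with quantile normalization. The causes were not tested. The ratio kept its side of the threshold in 7 of 7 other settings, none of which rescaled the libraries.

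In the 14 fits that left out a library or a rat, where a lone glomerulus library is assumed to vary like the other groups, the F-test adjusted p was 9.6e-08 to 0.10 for miR-21-5p (lost without proximal tubule of rat 2 or 3, or rat 2) and 0.00074 to 0.16 for miR-210-3p (lost without proximal tubule or collecting duct of rat 2, or any rat). For miR-21-5p, proximal tubule minus thick ascending limb was 1.11 to 1.73, lost without each collecting duct or proximal tubule library, thick ascending limb of rat 1 or 2, or rat 1 or 2. Proximal tubule minus collecting duct was 0.97 to 1.53, glomerulus minus collecting duct -1.41 to -0.42 (called without glomerulus of rat 1), and thick ascending limb minus collecting duct -0.59 to 0.20 (0.08 without thick ascending limb and 0.12 without collecting duct of rat 2). For miR-210-3p, proximal tubule minus glomerulus was -0.55 to 2.81 (-0.25 without glomerulus of rat 3), proximal tubule minus collecting duct -3.14 to -1.93, glomerulus minus thick ascending limb -4.16 to -1.26, glomerulus minus collecting duct -5.20 to -2.23 and thick ascending limb minus collecting duct -1.32 to -0.36. The exact p of the ratio was 0.016 to 0.12.

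Counts of all miRNAs called moved both ways over the other settings, then over the left-out fits. They were 28 to 70 and 27 to 85 (46 as reported) in the F-test, 15 to 51 and 20 to 73 (33) for proximal tubule minus glomerulus, 5 to 43 and 3 to 37 (15) for proximal tubule minus thick ascending limb, 11 to 42 and 7 to 40 (19) for proximal tubule minus collecting duct, 13 to 45 and 15 to 44 (21) for glomerulus minus thick ascending limb, 16 to 50 and 19 to 67 (28) for glomerulus minus collecting duct, and 1 to 26 and 0 to 26 (4) for thick ascending limb minus collecting duct. miR-210-3p rests on 19 to 28 reads per proximal tubule library and on 0 in the glomerulus of rat 3.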
